A study of Mus musculus with 8 samples.

Results

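The 9 genes described here encode the factors that recognise and license replication origins: Orc1, Orc2, Orc3, Orc4, Orc5 and Orc6, the subunits of the origin recognition complex, the loading factors Cdc6 and Cdt1, and Gmnn, which encodes geminin. They were found by gene symbol in the platform annotation, which gave 17 probe sets of 22626 on the array, or 9 genes of 12393 named. Each probe set was followed in TTE3, a single line of Sertoli cells of the mouse testis that carries a temperature-sensitive SV40 large T-antigen from its transgenic donor mice. At 39 °C, the nonpermissive temperature, the T-antigen is inactive. RNA was taken after 0, 6, 12 or 24 h at 39 °C, with 2 arrays per time and 8 in all, and every array, 0 h included, is of the same T-antigen line with no other agent named. Temperature, T-antigen state and hours in culture change together from 0 h on and cannot be told apart, since no culture kept at a permissive temperature for the same hours was used here.

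The origin recognition complex sits on replication origins. In the G1 phase Cdc6 joins it, Cdt1 brings the MCM helicase, and the helicase is loaded around the DNA, which licenses the origin to fire later in S phase. Geminin binds Cdt1 from S phase to mitosis and blocks a second round of loading. Transcription of Orc1, Cdc6, Cdt1 and Gmnn is known to be driven by E2F factors, which the retinoblastoma protein family restrains and which T-antigen sets free by binding that family. Sertoli cells divide in the fetal and young testis and stop dividing at puberty.

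Cdc6 rose and Orc2 fell after the shift to 39 °C, and most of the other licensing genes had no called change. Cdc6 was 1.76-fold above 0 h at 6 h, 2.0-fold at 12 h and 1.85-fold at 24 h. A pair of Orc2 probe sets was 1.92-fold and 2.01-fold below 0 h at 24 h, while the remaining Orc2 probe set was not called. Signals are in arbitrary units after scaling of each array to a common mean, changes are on the log2 scale with the standard error (SE) of a limma fit to all arrays, and a change is called at a Benjamini-Hochberg adjusted p below 0.05 over all tested probe sets. RNA of the whole culture was measured, so fewer cells in a given state and less RNA per cell cannot be told apart.

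Of the 17 probe sets, 16 passed the filter on dim signals and were tested. In the F-test for any change over the 4 times, 3 of 16 were called, the Cdc6 probe set and 2 of Orc2, against 40.1% of all 13576 tested probe sets. At 6 h 4 of 16 were called, against 18.0% of all tested, 3 of them higher (8.65% of all) and 1 lower (9.33% of all). At 12 h 3 were called (24.0% of all), 1 higher (12.1% of all) and 2 lower (11.9% of all). At 24 h 4 were called (32.9% of all), 2 higher (17.1% of all) and 2 lower (15.8% of all). The median log2 change of the 16 was 0.03, 0.09 and -0.06 at 6, 12 and 24 h, beside 0.0026, 0.0053 and 0.02 over all tested probe sets. With these settings the share of licensing probe sets called was below that of the array in the F-test and at 12 and 24 h. At 6 h, with 4 called, it was above. The differences at 6, 12 and 24 h rest on few probe sets, some of the same gene, and were not tested. Their direction also depended on the setting. After quantile normalization 6 were called at 24 h, a share above that of the array. Without the variance trend 4 were called at 12 h, a share above, and 2 at 6 h, a share below. The 0 h arrays are shared by these comparisons.

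**Figure D1:**
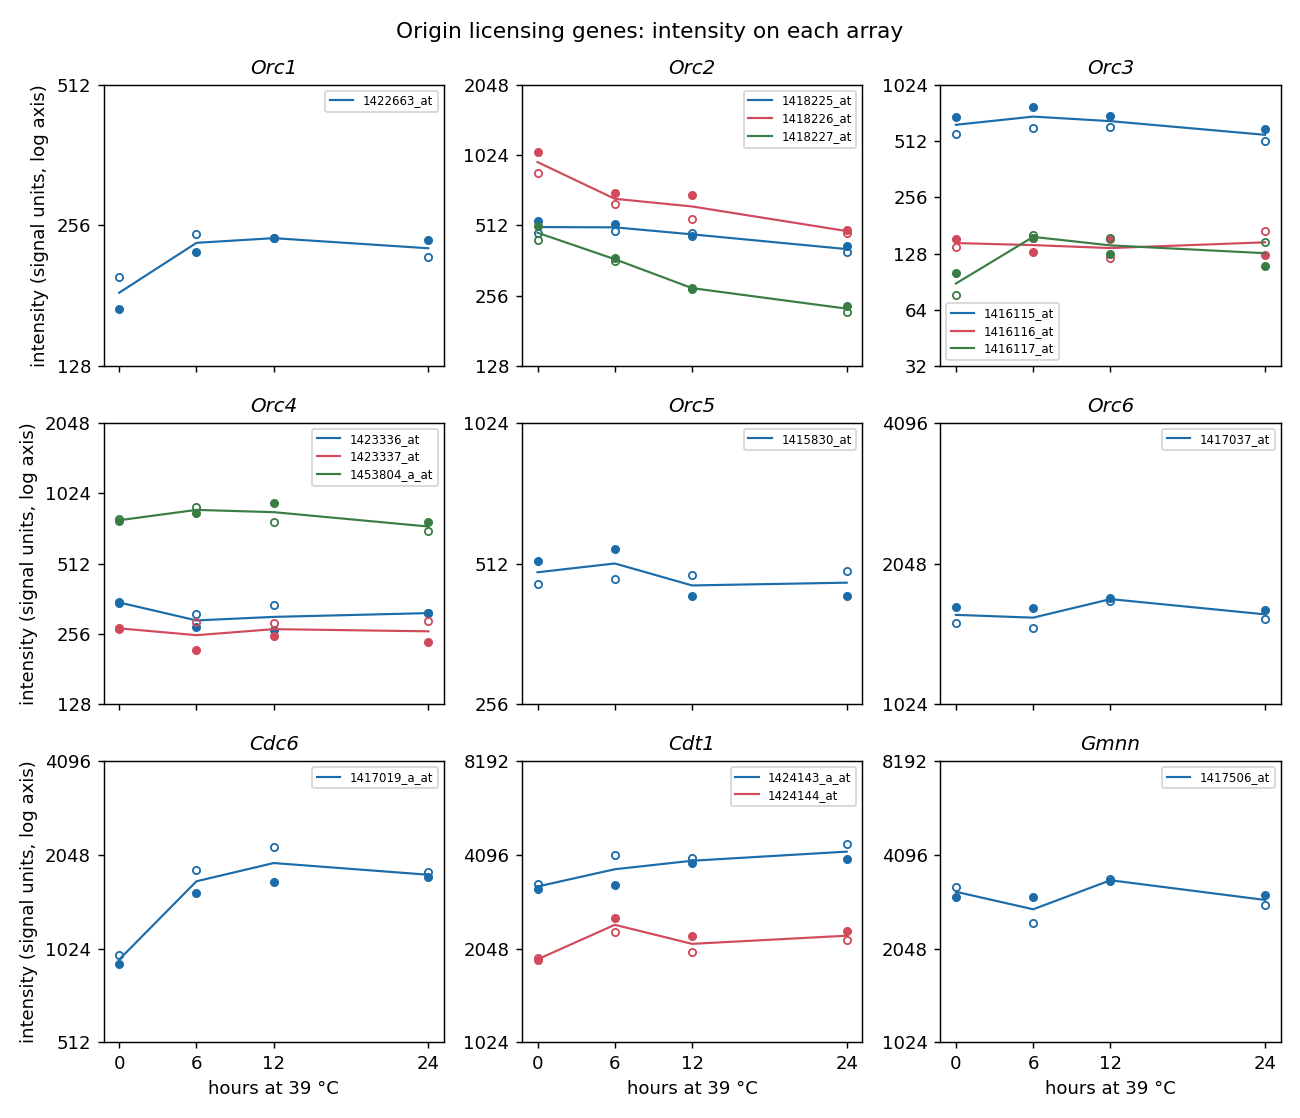
Intensity in signal units (log axis) against hours at 39 °C for the 16 tested probe sets of the 9 genes, with a filled point for replicate 1, an open point for replicate 2 and a line through the means. Cdc6 lies between 912 and 975 at 0 h and from 1541 up on every later array, and Orc2 probe set 1418227_at falls from 508 and 446 to 232 and 219.

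Cdc6 is the ATPase that, with the origin recognition complex, opens the way for helicase loading. Its probe set 1417019_a_at read 912 and 975 at 0 h, 1541 and 1827 at 6 h, 1678 and 2176 at 12 h, and 1733 and 1802 at 24 h. Every array at 39 °C for 6 h or longer was above both 0 h arrays, and the later times overlapped one another. The log2 change from 0 h was 0.82 ± 0.13 at 6 h (limma adjusted p = 0.00213), 1.0 ± 0.13 at 12 h (adjusted p = 0.000419) and 0.89 ± 0.13 at 24 h (adjusted p = 0.000448). Each of these 3 calls held in all 17 alternative settings. The 24 h level differed from 12 h by -0.11 ± 0.13 (95% confidence interval -0.40 to 0.18, adjusted p = 0.676), so the order of the later times was within their spread.

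The Cdc6 promoter, from 250 bases before to 50 after the annotated start, is shown because this gene rose at every later time; capitals mark a match to the E2F motif searched, read here on the opposite strand. It lies at chr11:98907901-98908200 on the plus strand of GRCm38.p6, and the sequence is from RefSeq.
Cdc6: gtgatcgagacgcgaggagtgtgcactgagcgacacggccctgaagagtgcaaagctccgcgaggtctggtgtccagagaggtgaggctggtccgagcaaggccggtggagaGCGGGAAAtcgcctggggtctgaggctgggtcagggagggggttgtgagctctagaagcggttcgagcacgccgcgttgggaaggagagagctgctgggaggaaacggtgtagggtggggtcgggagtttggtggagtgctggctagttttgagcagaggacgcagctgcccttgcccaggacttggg

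The E2F motif was searched on both strands as TTTCCCGC, TTTCGCGC, TTTGCCGC or TTTGGCGC. Of 32851 promoter windows of 300 bases in the RefSeq table, 744 (2.26%) held a match. Windows were found for 8 of the 9 genes, 11 windows in all, and Gmnn had no entry. Matches were found for 4 genes, Cdc6, Cdt1, Orc1 and Orc3, and the letters were not in the windows of Orc2, Orc4, Orc5 and Orc6. A second motif, CCAAT, which NF-Y binds, was in 37.4% of all windows and in 5 of the 11 windows here. These were the windows of Orc1, Orc2 and Orc6 and, of those of Orc4, only the one at chr2:48950185-48950484. The stretches around the other matches, in capitals, are given to set beside Cdc6. They lie at chr8:122568036-122568064 (plus strand), chr4:108579416-108579445 (plus strand) and chr4:34614965-34614994 (minus strand) of GRCm38.p6. In Orc1, as in Cdc6, the match reads on the opposite strand. The match begins 27, 41 and 138 bases before the annotated start in Orc1, Orc3 and Cdc6. In Cdt1 it begins 32 bases after that start.
Cdt1: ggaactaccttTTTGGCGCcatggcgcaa
Orc1: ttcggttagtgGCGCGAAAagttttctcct
Orc3: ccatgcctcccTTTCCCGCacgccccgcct

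The calls of the genes with a match were unlike. Cdc6 was called at all 3 later times, Cdt1 at single times by separate probe sets, Orc3 by 1 of 3 probe sets at 6 h and Orc1 at none. A match is a description of the letters and shows no binding.

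Orc2 encodes a core subunit of the complex that stays with it through the cell cycle. Its probe set 1418226_at read 1052 and 861 at 0 h, 703 and 630 at 6 h, 690.0 and 545 at 12 h, and 492 and 478 at 24 h. All later arrays lay below both 0 h arrays, and 24 h lay below every earlier array. The log2 change was -0.50 ± 0.14 at 6 h (adjusted p = 0.0312), -0.62 ± 0.14 at 12 h (adjusted p = 0.00949) and -0.94 ± 0.14 at 24 h (adjusted p = 0.000492). The call at 24 h held in all 17 settings. At 12 h it ended when 0 h replicate 1 (adjusted p = 0.111) or 12 h replicate 2 (adjusted p = 0.0798) was left out, and at 6 h it ended in 7 of 17 settings. Those 7 were the fits without a filter (adjusted p = 0.0608) and without the variance trend (0.0643), and those without 0 h replicate 1 (0.256), 0 h replicate 2 (0.0534), 6 h replicate 2 (0.0891), 24 h replicate 1 (0.0509) or 24 h replicate 2 (0.0506).

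A further Orc2 probe set, 1418227_at, read 508 and 446 at 0 h, 373 and 361 at 6 h, 277 and 275 at 12 h, and 232 and 219 at 24 h. The times did not overlap, and each was lower than the one before. The log2 change was -0.36 ± 0.13 at 6 h (adjusted p = 0.084, not called), -0.74 ± 0.13 at 12 h (adjusted p = 0.00221) and -1.01 ± 0.13 at 24 h (adjusted p = 0.000191), and the calls at 12 and 24 h held in all 17 settings. The remaining probe set, 1418225_at, read 534 and 474 at 0 h, 521 and 485 at 6 h, 463 and 476 at 12 h, and 417 and 395 at 24 h. It overlapped 0 h until 12 h and lay below it at 24 h, by -0.30 ± 0.12 (95% confidence interval -0.56 to -0.03, adjusted p = 0.0802). That change was called after quantile normalization (-0.34, adjusted p = 0.0496) and with arrays centred on their median (-0.40, adjusted p = 0.0304). The 3 Orc2 probe sets thus had the same sign at 24 h and differed in size, and that difference was not tested.

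The window at the upstream of 2 annotated Orc2 starts is shown because 2 of the 3 Orc2 probe sets fell. It lies at chr1:58505060-58505359 on the minus strand of GRCm38.p6 (RefSeq). The letters are in lower case throughout, since no E2F match was found. Windows of Orc4, Orc5 and Orc6 held no match either, and no probe set of these genes was called. A link between the motif and the direction of change was not tested.
Orc2: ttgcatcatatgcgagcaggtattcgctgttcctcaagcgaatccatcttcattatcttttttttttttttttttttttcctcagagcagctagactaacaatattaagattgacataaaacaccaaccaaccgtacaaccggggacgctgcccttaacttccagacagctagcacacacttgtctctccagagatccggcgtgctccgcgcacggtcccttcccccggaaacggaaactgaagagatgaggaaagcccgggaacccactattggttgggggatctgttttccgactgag

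Signals of Orc2 were lower at 24 h than at 6 h as well. In the comparison of 24 h with 6 h, 2 of 16 licensing probe sets were called, both of Orc2 and both lower, against 24.9% of all tested probe sets. The changes were -0.65 ± 0.13 for 1418227_at (adjusted p = 0.00419, held in all 17 settings) and -0.44 ± 0.14 for 1418226_at (adjusted p = 0.0424). The second call ended in 7 of 17 settings, with adjusted p from 0.0514 to 0.17: without a filter, without the variance trend, and without 0 h replicate 1, 0 h replicate 2, 6 h replicate 1, 24 h replicate 1 or 24 h replicate 2. Between neighbouring times, limma called 0 of 16 from 6 to 12 h (8.32% of all) and 0 of 16 from 12 to 24 h (6.88% of all). At an unadjusted p below 0.05 there were 2 in the former, Orc2 1418227_at and Gmnn, and 1 in the latter, Orc2 1418226_at, beside 3384 and 3066 of all 13576 tested probe sets. The numbers of all probe sets called in these steps, 1130 and 934, were 330 without 12 h replicate 2 and 84 without 24 h replicate 2.

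**Figure D2:**
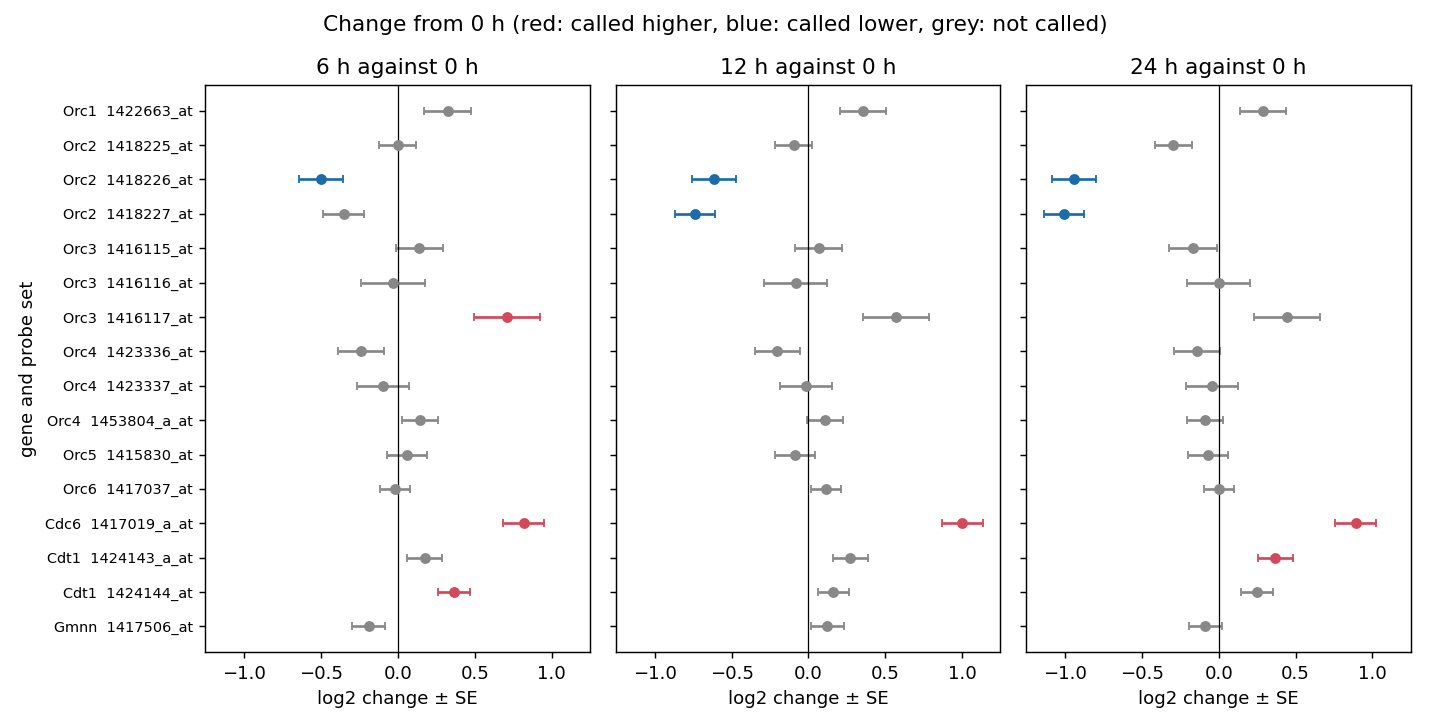
Log2 change from 0 h for the 16 tested probe sets at 6, 12 and 24 h; points are fitted changes, bars are ± 1 SE, red is called higher, blue called lower and grey not called. Cdc6 lies near 0.82 to 1.0 at all times, Orc2 1418226_at and 1418227_at reach -0.94 and -1.01 at 24 h, and the probe sets of Orc4, Orc5, Orc6 and Gmnn are grey throughout.

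Cdt1 carries the MCM helicase to the complex and is destroyed as S phase begins. Probe set 1424143_a_at read 3186 and 3295 at 0 h, 3273 and 4091 at 6 h, 3851 and 3990 at 12 h, and 3967 and 4422 at 24 h. The 6 h arrays overlapped 0 h, and the 12 and 24 h arrays lay above it. Its log2 change was 0.17 ± 0.11 at 6 h (adjusted p = 0.319), 0.27 ± 0.11 at 12 h (adjusted p = 0.104) and 0.37 ± 0.11 at 24 h (adjusted p = 0.0283). The call at 24 h ended in 7 of 17 settings, with adjusted p up to 0.195: without a filter, without the variance trend, with arrays centred on their median, and without either 0 h array or either 24 h array.

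Probe set 1424144_at of Cdt1 read 1877 and 1904 at 0 h, 2572 and 2311 at 6 h, 2248 and 1992 at 12 h, and 2330 and 2174 at 24 h. All later arrays were above 0 h, and the 6 h arrays overlapped those of 24 h and lay above those of 12 h. The change was 0.36 ± 0.10 at 6 h (adjusted p = 0.0307), 0.16 ± 0.10 at 12 h (adjusted p = 0.281) and 0.25 ± 0.10 at 24 h (adjusted p = 0.0839). The 6 h call ended in 8 of 17 settings, with adjusted p up to 0.167: with arrays centred on their median, without the variance trend, with only the arrays of 0 and 6 h, and without 0 h replicate 1, 0 h replicate 2, 6 h replicate 1, 24 h replicate 1 or 24 h replicate 2. The remaining Cdt1 probe set, 1455791_at, read 1.0 to 16.5 on the 8 arrays, below the offset of 21.9 added before taking logs, and was not tested.

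Gmnn, encoding the inhibitor of Cdt1, had 1 probe set, 1417506_at. It read 2993 and 3240 at 0 h, 2996 and 2480 at 6 h, 3369 and 3419 at 12 h, and 3034 and 2833 at 24 h. The 12 h arrays were the highest and the 6 h arrays differed most from each other. Its log2 change from 0 h was -0.19 ± 0.11 at 6 h (adjusted p = 0.246), 0.12 ± 0.11 at 12 h (adjusted p = 0.438) and -0.09 ± 0.11 at 24 h (95% confidence interval -0.32 to 0.15, adjusted p = 0.582). Without 6 h replicate 1 the 6 h value was -0.33 (adjusted p = 0.0481) and the step from 6 to 12 h was 0.45 (adjusted p = 0.0231, 0.31 with all arrays, adjusted p = 0.0961).

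Orc1, the subunit whose protein is known to leave the complex or be degraded after G1 in mammalian cells, read 169 and 198 at 0 h, 225 and 246 at 6 h, 240.5 and 240.5 at 12 h, and 239 and 219 at 24 h. Every later array was above both 0 h arrays. The log2 change was 0.32 ± 0.15 at 6 h (limma adjusted p = 0.169), 0.36 ± 0.15 at 12 h (adjusted p = 0.115) and 0.29 ± 0.15 at 24 h (adjusted p = 0.177). None of the 16 settings that tested Orc1 called it, and the filter at the 60th percentile left it out as too dim. Its 95% confidence interval at 12 h, not adjusted for the number of probe sets tested, ran from 0.02 to 0.69. The unadjusted limma p was 0.0399 at 12 h, 0.0575 at 6 h and 0.0854 at 24 h. A rise within that interval is thus neither called nor excluded by these arrays.

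Orc3, a large subunit bound to Orc2 in the complex, had 3 probe sets, of which 1 was called against 0 h. Probe set 1416117_at read 100.2 and 76.8 at 0 h, 154 and 160.3 at 6 h, 128 and 156 at 12 h, and 110.3 and 147 at 24 h, with all later arrays above 0 h. Its log2 change was 0.71 ± 0.21 at 6 h (adjusted p = 0.0413), 0.57 ± 0.21 at 12 h (adjusted p = 0.0757) and 0.44 ± 0.21 at 24 h (adjusted p = 0.137). With the offset at the 50th percentile of all values (145.9 units) the 6 h change was 0.37. The 6 h call ended in 8 of 16 settings, with adjusted p from 0.0524 to 0.233: without a filter, with only the arrays of 0 and 6 h, and without any of the 0, 6 or 24 h arrays in turn. Probe set 1416115_at ranged from 514 to 780.3 over the 8 arrays and 1416116_at from 121 to 169. Neither was called against 0 h, with changes between -0.17 and 0.14.

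Orc4, Orc5 and Orc6 complete the complex, Orc4 and Orc5 being further ATPase-fold subunits and Orc6 the smallest one. None of their 5 probe sets was called in any comparison or setting. The Orc6 probe set 1417037_at stayed between 1493 and 1732 over the 8 arrays, and its change at 24 h was 0.0043 ± 0.10 (95% confidence interval -0.21 to 0.22). Orc5 1415830_at stayed between 437 and 549, with a change at 24 h of -0.07 ± 0.13 (95% confidence interval -0.36 to 0.22). The 3 Orc4 probe sets ranged from 266 to 352 (1423336_at), 218 to 289.9 (1423337_at) and 704 to 929 (1453804_a_at). Their changes at 24 h were -0.14 ± 0.15, -0.05 ± 0.17 and -0.09 ± 0.12. For these 5 probe sets a change of 2-fold in either direction lies outside the 95% intervals at 24 h, while smaller changes lie within them.

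The profiles closest to those of Cdc6 and Orc2 were sought among probe sets of other genes with a range of time means of at least 0.5 on the log2 scale (5757 probe sets), by Pearson correlation over the 8 arrays, as a description only. For Cdc6 the closest were Calhm2 (r = 0.987), whose mean signal went from 75.8 at 0 h to 206 at 12 h and 189 at 24 h, Oma1 (r = 0.985) and H2aj (r = 0.984). For Orc2 1418227_at they were Cnn2 (r = 0.997), from 4574 at 0 h to 2184 at 24 h, Tbrg4 (r = 0.993) and Ebna1bp2 (r = 0.993). Calhm2 encodes a channel protein, Oma1 a mitochondrial protease, H2aj a histone H2A variant, Cnn2 the actin-binding protein calponin 2, Tbrg4 a mitochondrial RNA-binding protein and Ebna1bp2 a ribosome biogenesis factor. The 8 arrays are 4 pairs of equal time, which all these profiles share.

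Other genes of licensing and firing were read from 4 lists, each gene by its brightest tested probe set; medians of a list stand beside those over all tested probe sets given above. In the MCM list 7 of 9 genes were tested. Of these 1 rose at 6 h, 4 at 12 h and 5 at 24 h, with median log2 changes of 0.17, 0.34 and 0.41, and none of the 7 was called lower. Over all tested probe sets 8.65%, 12.1% and 17.1% were called higher at these times, and 9.33%, 11.9% and 15.8% lower, which are the shares to set beside the counts of all 4 lists. Mcm5, a helicase subunit, went from 1533 ± 120 to 2090 ± 113, 2493 ± 134 and 2154 ± 98.1 at 6, 12 and 24 h (mean ± SD, n = 2). Its log2 change was 0.69 ± 0.10 at 12 h (adjusted p = 0.000735). Mcm6, another subunit, went from 2943 ± 45.3 to 4690 ± 70.8 at 24 h (0.67 ± 0.09, adjusted p = 0.000274). The number risen at 12 h was 1 without 0 h replicate 1 or 0 h replicate 2, and 2 without either 12 h array. At 24 h it was 2 without 0 h replicate 2 and 3 without 24 h replicate 1.

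Origin firing turns a licensed origin into a pair of forks through CDC7 and cyclin-dependent kinases, CDC45 and GINS. Of 15 tested genes 4 rose and 1 fell at 6 h, 4 rose at 12 h, and 3 rose and 2 fell at 24 h, with medians of 0.08, 0.25 and 0.08. The counts at 24 h were near the shares of all probe sets, 17.1% higher and 15.8% lower. Cdc45, a helicase activator, went from 518 ± 75.9 to 819 ± 101, 1022 ± 21.6 and 735 ± 35.6 (mean ± SD, n = 2), a change of 0.96 ± 0.13 at 12 h (adjusted p = 0.000499). Ccne2, encoding cyclin E2, went from 396 ± 33.4 to 783 ± 89.3 at 12 h (0.95 ± 0.24, adjusted p = 0.0141). That call ended without either 0 h array or 12 h replicate 2, with adjusted p up to 0.0965. Dbf4, the activator of CDC7, fell by 0.46 on the log2 scale at 24 h (adjusted p = 0.00659), and Ccna2, encoding cyclin A2, fell by 0.40 (adjusted p = 0.0365). Without 0 h replicate 2 none of the 15 was called lower at 24 h. Without 0 h replicate 1 the numbers risen at 6, 12 and 24 h were 1, 2 and 1.

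The turnover and control list holds ubiquitin ligase parts and other regulators of Cdc6, Cdt1 and geminin. Of 16 tested genes 1 fell at 6 h, 2 rose and 2 fell at 12 h, and 2 rose and 2 fell at 24 h, with medians of 0.07, -0.01 and -0.03. These counts were near or below the shares of all probe sets called at 12 h (12.1% higher, 11.9% lower) and at 24 h (17.1% and 15.8%). Pcna, the sliding clamp on which Cdt1 is marked for destruction, went from 9685 ± 142 to 13819 ± 485 at 12 h (mean ± SD, n = 2; 0.51 ± 0.09, adjusted p = 0.00175) and was 0.43 ± 0.09 above 0 h at 24 h (adjusted p = 0.00321). Cdc27, a subunit of the anaphase promoting complex, went from 171 ± 4.74 to 84.5 ± 0.636 at 6 h (-0.86 ± 0.20, adjusted p = 0.0128), a call that ended without 0 h replicate 1 (adjusted p = 0.079) or 0 h replicate 2 (adjusted p = 0.0898). Without 0 h replicate 1 this list had 0 genes called lower at each later time and 1 higher at 12 h and at 24 h.

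Among E2F factors and pocket proteins, 1 of 14 tested genes rose at 6 h, 2 rose at 12 h, and 2 rose and 2 fell at 24 h, with medians of 0.10, 0.11 and -0.02. The counts at 24 h were near or below the shares of all probe sets, 17.1% higher and 15.8% lower. Rbl1, encoding a pocket protein, was counted as not called by the brighter of its 2 tested probe sets. That one was at 0.23, 0.18 and 0.20 at 6, 12 and 24 h, while the other was at -1.26, -1.24 and -1.07. Rb1, encoding the retinoblastoma protein, read 107 and 89.8 at 0 h, 86.6 and 131 at 6 h, 204 and 221 at 12 h, and 419.5 and 469 at 24 h. Its log2 change was 1.95 ± 0.20 at 24 h (adjusted p = 3.29e-05), and 1.27 with the offset at the 50th percentile. Foxm1, a transcription factor of mitotic genes, went from 460 ± 49.8 to 236 ± 36.3 at 24 h (-0.90 ± 0.14, adjusted p = 0.000668), and its 3 probe sets ranged from -0.90 to -0.35 at 24 h. The 2 tested probe sets of E2f1 itself were at -0.17 and 0.12 at 24 h, and the brighter one, at -0.17, was not called (adjusted p = 0.451). They differed more at 6 h, where the brighter one was at -0.04 and the other at 0.64. At 12 h the brighter one was at 0.06 and the other at 0.27. The brighter one was not called at 6 or 12 h either. Without 0 h replicate 1 this list had 0 genes called higher at 6 h, 1 higher at 12 h and 1 lower at 24 h.

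**Figure D3:**
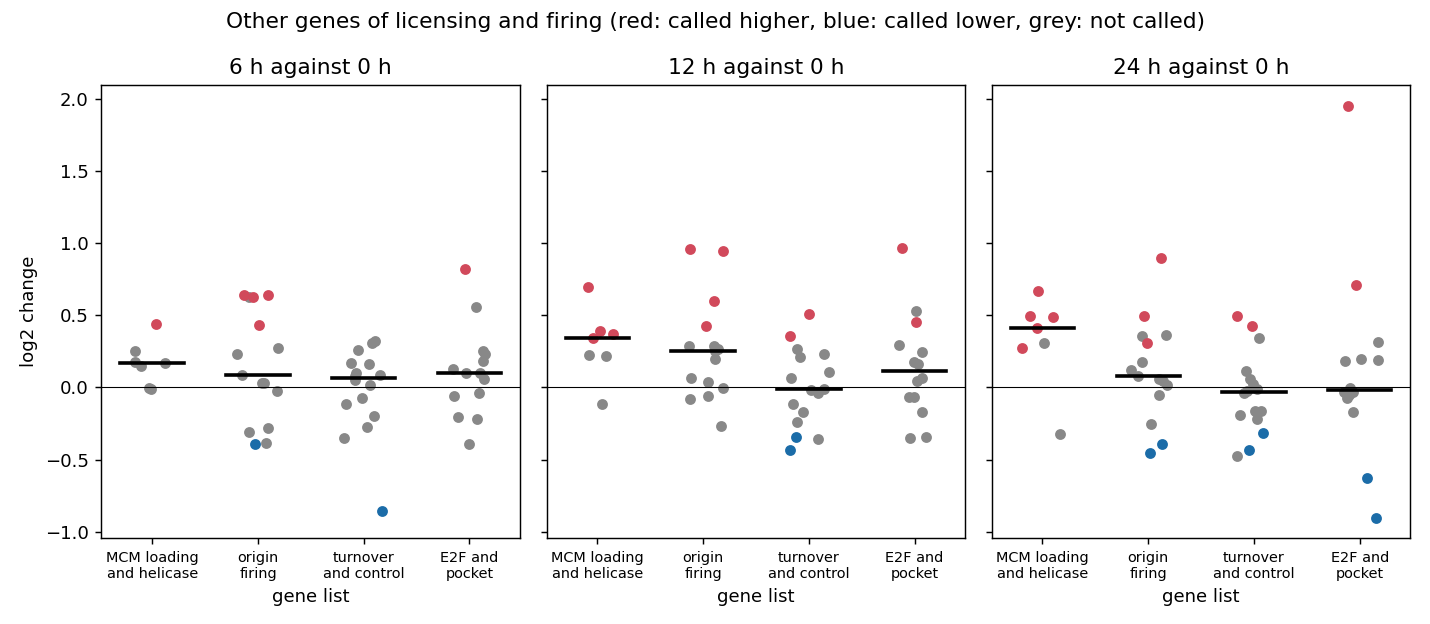
Log2 change from 0 h for each tested gene of the 4 lists at 6, 12 and 24 h; each point is 1 gene, the black bar is the median of the list, red is called higher, blue called lower and grey not called. The MCM median rises from 0.17 to 0.41 while the E2F and pocket median is -0.02 at 24 h, where Rb1 stands at 1.95.

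General markers of the cell cycle moved unequally over the same hours. Cdkn1a, encoding the kinase inhibitor p21, was 2.85 ± 0.09 above 0 h at 6 h and 3.27 ± 0.09 at 24 h on the log2 scale (adjusted p = 3.21e-09 at 24 h). The proliferation marker Mki67 was at -0.24 ± 0.12 at 6 h (adjusted p = 0.182) and -0.35 ± 0.12 at 24 h (adjusted p = 0.0386), and the latter call ended in 7 of 17 settings with adjusted p up to 0.212. The share of cells in each phase was not measured here, so the part of phase in the Cdc6 and Orc2 values was not tested.

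The arrays themselves were alike in scale: median signals ran from 138 to 154, and 3' to 5' signal ratios from 1.03 to 1.13 for actin and from 0.717 to 0.805 for Gapdh. Of 20 Sertoli markers 18 were on the array and 8 passed the filter, among them Sox9 (109 to 198), Wt1, Gata4 (393 to 597), Clu and Kitl, while Amh (3.5 to 13.8), Cldn11 (4.1 to 22.9) and Cst9 (1.4 to 36.8) were near the lowest signals. The 2 arrays of 0 h had summed signals of 4353 and 4555 for the 18 markers, those of 6 h 4771 and 5825, those of 12 h 5091 and 5729, and those of 24 h 6777 and 7382. The sum was thus highest at 24 h, and its part in the Cdc6 and Orc2 results was not tested. Clu alone ranged from 1295 to 4205 over the 8 arrays. The sum of the 4 Leydig markers was 96.8 to 158 at 0 h and 248 to 326 at 24 h. Most of that sum was Star, which ranged from 74.6 to 287 over the 8 arrays. Cyp11a1, Cyp17a1 and Hsd3b1 reached at most 12.2, 14.1 and 36.2. The sum of the 4 endothelial markers was 146 to 148 at 0 h and 181 to 213 at 24 h. The part of these sums was not tested either. Of the markers of other testis cells, 0 of 7 germ cell and 0 of 4 endothelial genes passed the filter, as did 1 of 4 Leydig, 2 of 4 peritubular myoid and 3 of 5 macrophage and blood genes.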

How the data were processed

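Total RNA of TTE3 cells was labelled in a one-cycle reaction and measured on the Affymetrix Mouse Expression Array 430A, per the labels' protocols. The authors deposited probe set intensities on a linear scale; the trimmed mean was 500.2 on each array, so they had been scaled, which hides any change in total mRNA per cell. The name of the software behind these values is not given in the sources used here. Labels leave unsaid whether both arrays of a time stem from different cultures. The p-values then reflect only how far these arrays differ, which may be technical, and 8 arrays limit the precision.

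Control probe sets (64) were removed. Symbols came from the platform annotation, updated through a RefSeq table (GRCm38.p6): 20380 probe sets had 1 symbol, 691 several and 1555 none. Values were log2(intensity + 21.9), the 20th percentile, so changes of dim genes are understated. A filter kept the 13576 probe sets whose mean log2 value reached the 40th percentile, 6.58. limma 3.58.1 in R 4.3.3 (trended eBayes, 4 residual and 7.22 prior degrees of freedom) fitted 4 time groups, with 2-sided contrasts and Benjamini-Hochberg adjustment, and the code was tested on simulated data. Named were all probe sets of the 9 genes, the 2 genes with the largest called change in each list, Pcna, Mki67 and Cdkn1a. The 3 genes closest in profile to each of the 2 most variable members were named as well. Dbf4, Ccna2, E2f1, Rbl1 and the markers printed were named after their values were seen. The members, lists and alternatives (17 settings) were chosen with earlier results of these data known. Centring arrays on their medians lowers every change at 24 h against 0 h by 0.10.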

Additional observations from a re-analysis of the deposited data

How the results depend on the processing

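Of 13 called changes of single licensing probe sets, 7 kept their direction and call in all 17 alternative settings: the 3 of Cdc6, those of Orc2 1418227_at at 12 and 24 h and from 6 to 24 h, and that of Orc2 1418226_at at 24 h. The other 6 lost the call in some setting, none changed sign, and 10 of 83 uncalled values were called in some setting. Settings that leave an array out have fewer samples; other causes of lost calls were not tested.

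The number of licensing probe sets called in the F-test (3) was 5 with the replicate block and 3 to 5 when single arrays were left out. At 6 h the number (4) was 2 without a filter, 2 without the variance trend and 2 with only the arrays compared, and 1 to 4 with single arrays left out, where 1 remained without 0 h replicate 1, 0 h replicate 2, 24 h replicate 1 or 24 h replicate 2. In the settings that leave no single array out, the number at 12 h (3) was 3 to 4 and the number at 24 h (4) was 3 to 6. The highest, 6, was after quantile normalization. From 6 to 24 h (2) it was 1 without a filter, 1 without the variance trend and 3 after quantile normalization or with arrays centred on their median. From 6 to 12 h (0) the range over left-out arrays was 0 to 1. Over all probe sets, the calls at 6, 12 and 24 h against 0 h (2441, 3257 and 4472) were 836, 1523 and 2595 without 0 h replicate 1. Leaving that array out moved the total of the F-test from 5447 to 3303, and the comparison of 24 h with 6 h called 3377 and, without 24 h replicate 2, 1746.

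Equal replicate numbers are not said to share a culture, and deviations of same-numbered arrays correlated with r between 0.05 and 0.18 over the 6 pairs of times, above 0.1 in 2, so the fit behind the report has no replicate block, which is 1 of the 17 alternative settings. Signal over background was not measured for single probe sets here.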
